A study of Mus musculus with 6 samples.

Results

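The 44 genes described here encode the subunits, activators and assembly chaperones of the proteasome. They were taken by name from the 14002 genes listed for each mouse. Every gene whose symbol begins with Psma, Psmb, Psmc, Psmd, Psme, Psmf or Psmg followed by a digit was a member, and Psmb8, Psmb9 and Psmb10, which encode interferon-inducible catalytic subunits, were left out. The rule uses the names alone and no expression value. By role the members fell into 14 genes of the core particle, 17 of the regulatory particle, 7 assembly chaperones and 6 genes of activators with an inhibitor. All 44 had a mean expression value of at least 1 over the 6 libraries and were tested.

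Both groups were C57BL/6 mice kept on a 60% high-fat diet over 8 weeks, with an age given as 8 weeks. One group was wild type (n = 3) and the other, called LKO, carried a hepatocyte knockout of let-7b and let-7c-2, microRNA genes that lie together on chromosome 15 (n = 3). The labels name neither a Cre line nor a promoter, and do not say whether the mice were littermates. Whole liver RNA was made into stranded mRNA libraries, so the mature microRNAs were not measured, and the knockout was not checked here.

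The proteasome is the main machine for breaking down proteins tagged with ubiquitin. Its core particle is a barrel of alpha rings, which form the gate, and beta rings, which hold the threonine proteases. The regulatory particle caps the barrel, binds and trims ubiquitin chains in its lid and base, and unfolds the substrate with a ring of ATPases. In hepatocytes the proteasome degrades, among many substrates, apolipoprotein B that fails to acquire lipid and enzymes of sterol synthesis. Proteasome genes are known to share transcriptional control in mouse and human cells by NRF1, the product of Nfe2l1, through antioxidant response elements near their starts.

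The microRNAs of the 2 genes named in the knockout are shown first, since they define the comparison. They differ at 1 base outside the seed, which is set in capitals (bases 2 to 8). Sequences are from RefSeq, build GRCm38.p6, and both lie on the plus strand, let-7b at chr15:85707325-85707346 and let-7c-2 at chr15:85706616-85706637.
let-7b: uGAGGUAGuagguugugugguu
let-7c-2: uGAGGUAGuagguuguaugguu
A message that pairs with this seed carries CTACCTCA, or 1 of the shorter forms CTACCTC and TACCTCA, in its 3′ untranslated region. Of the 44 members, 0 held any of the 3 in the longest annotated 3′ untranslated region of GENCODE M21. Of 10684 tested genes with such a region, 3.69% held the longest form, 10.6% held CTACCTC and 11.3% held TACCTCA. The lengths of these regions were not compared between members and other genes, and the share holding any of the 3 was not counted.

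Promoter windows of 250 bases before to 50 bases after the gene start were found in RefSeq (GRCm38.p6) for 37 of the 44 members. They were searched on both strands for TGACNNNGC, the core of the antioxidant response element, and for CCAAT, the core of the NF-Y site. TGACNNNGC was found in 6 of the 37 genes (16.2%), and in 14.4% of the windows of all tested genes. The 6 were Psmb5, Psmb6, Psmc6, Psmd9, Psmd12 and Psme4. CCAAT was found in 12 of the 37 genes (32.4%), and in 37.6% of the windows of all tested genes. Stretches around the match, in capitals, are shown for the catalytic subunit genes Psmb5 and Psmb6, whose LKO values lay below the wild type values, and for the activator gene Psme4, whose groups overlapped. The first lies at chr14:54617994-54618082 on the minus strand, the second at chr11:70525308-70525396 on the plus strand and the third at chr11:30771728-30771816 on the plus strand. In Psmb5 and Psmb6 the match reads on the gene's own strand, from 47 and 9 bases before the start, and in Psme4 it reads on the other strand.
Psmb5: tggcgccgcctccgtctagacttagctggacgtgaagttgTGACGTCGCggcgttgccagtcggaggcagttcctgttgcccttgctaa
Psmb6: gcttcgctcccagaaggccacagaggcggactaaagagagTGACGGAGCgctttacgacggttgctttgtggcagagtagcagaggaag
Psme4: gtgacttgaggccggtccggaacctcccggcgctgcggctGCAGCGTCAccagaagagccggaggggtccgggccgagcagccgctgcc
A match is a run of letters in the window, and no binding was measured.

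The libraries held between 8549483 and 10764825 estimated reads over the listed genes. A member had between 23 (Psme2b) and 1929 (Psmd2) estimated reads in a library, with a median of 624. Expression values are the authors' signal, an estimated read count times 1 factor per library. LKO replicate 2 stood apart, where the top 10 genes took 24.2% of the signal, against 18.7% to 21% in the other 5 libraries. The hepatocyte markers were abundant in all livers, and 0 of the 7 listed were called. Of 11 Kupffer cell and macrophage markers 5 were raised in LKO, among them Clec4f and Csf1r, with a median log2 fold change of 0.83. Their summed value was 126 to 144 in wild type and 194 to 278 in LKO. Of 3 erythroid markers 1 was raised, Hba-a1, and the summed value was 397 to 518 in wild type and 502 to 805 in LKO. Other leukocyte markers were low and summed to 2.08 to 2.40 in wild type and 3.23 to 3.72 in LKO. All 6 sinusoidal endothelial markers had higher means in LKO, with 0 called, and summed to 79.6 to 96.2 in wild type and 97.1 to 121 in LKO. The part of these cell types in the results below was not tested. In whole liver RNA, fewer cells of a type and less RNA per cell cannot be told apart.

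Whether proteasome messages differ between livers labelled with this hepatocyte knockout and wild type livers was asked gene by gene. No proteasome gene passed the test. Most members nevertheless had lower means in LKO, by small amounts. All 14 core particle genes and 16 of the 17 regulatory particle genes were on that side, and the activators lay close to 0. In limma across 11168 genes, with Benjamini-Hochberg adjustment, 0 of 44 members had an adjusted p under 0.05, where 3.51% of all tested genes did, 1.82% raised in LKO and 1.69% lowered. limma-voom on the estimated counts also called 0 of 44, and 3.04% of all tested genes. At an unadjusted p under 0.05, 7 members were lower in LKO (15.9%) and 0 were higher, against 8.86% and 9.58% of all tested genes, or 18.4% in either direction. The log2 fold change was below 0 in 36 of 44 members (81.8%) and in 50.2% of all tested genes. The median was -0.12 over the members and -0.002 over all tested genes. In 11 members (25.0%) all 3 LKO values lay below all 3 wild type values, and in 0 members above, where the shares of all tested genes were 11.9% and 12.2%. A two-sided exact permutation test of 3 against 3 livers could not give a p below 0.1 for any single gene.

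The fit put limits on the size of any difference. The 95% intervals of the fold change, unadjusted and on the log2(value + 1) scale, lay within 2-fold in either direction for all 44 members and within 1.5-fold for 36. The 8 with wider intervals were Psma3, Psmb5, Psmc2, Psmd4, Psmd14, Psmd10, Psmg3 and Psmg4. The median spread between livers of 1 group was 0.13 on the log2 scale for the members and 0.204 for all tested genes.

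**Figure D1:**
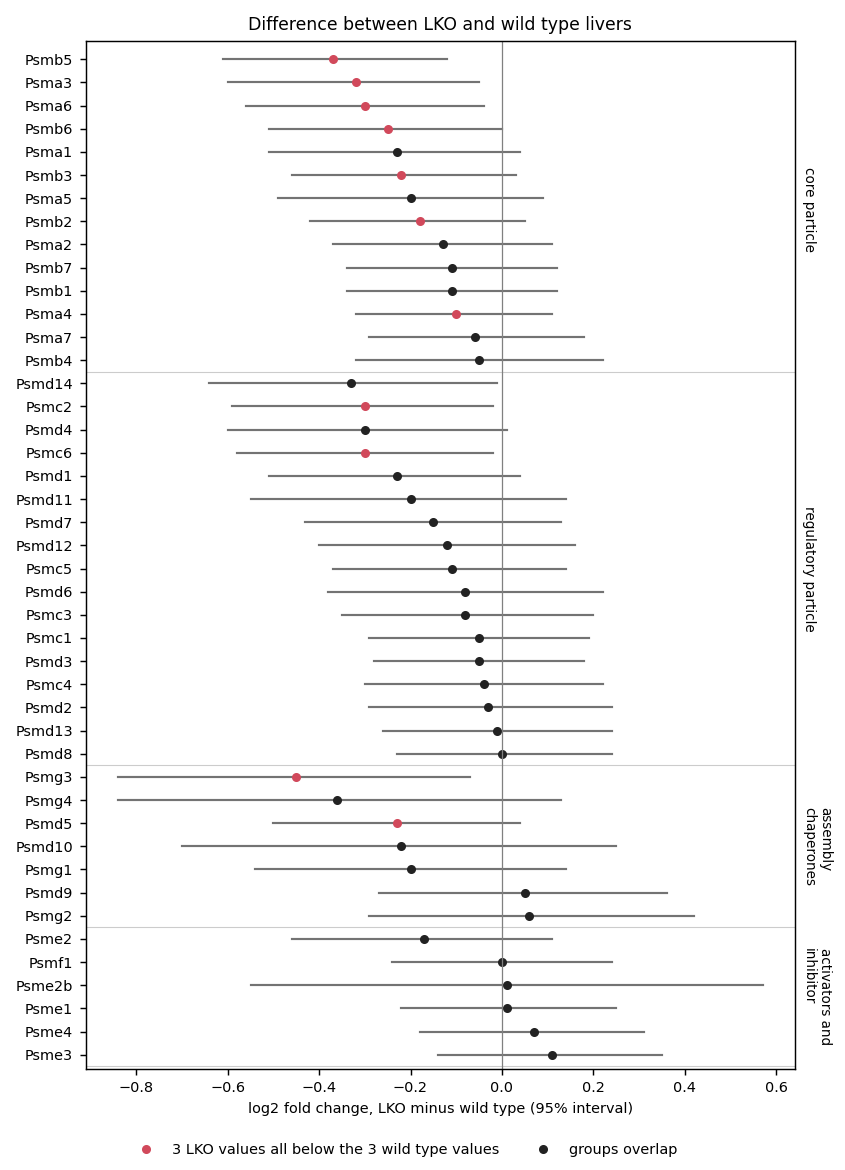
Log2 fold change of each of the 44 proteasome genes, LKO minus wild type, with its unadjusted 95% interval from limma (n = 3 livers per group), ordered within 4 groups by role. Points in red are genes whose 3 LKO values all lie below the 3 wild type values. All 14 core particle points lie left of 0, while those of the activators and inhibitor lie between -0.17 and 0.11.

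LKO replicate 2 was low for most members. It was the lowest of the 6 libraries in 25 of the 44 members and the lowest LKO library in 30. How often it was lowest over all tested genes was not counted, so this may not be particular to the members. Member values summed to 0.24% of all signal in that library and to 0.274% to 0.323% in the other 5. The total signal in this share was also largest there, at 1285735.7 against 1113255.6 to 1199206.9. Without LKO replicate 2, 33 of 44 log2 fold changes were below 0, and their median was -0.09, against 0.0 for all tested genes. In that fit 1 member, Psmb5, had an unadjusted p under 0.05, against 7 with all libraries. Leaving out LKO replicate 1 or 3 gave 12 and 2, and wild type replicate 1, 2 or 3 gave 3, 5 and 3. Calls over all genes also fell, from 203 raised and 189 lowered to 92 and 107 without LKO replicate 2. Without LKO replicate 3 they were 76 and 97. LKO replicate 1 lay nearest to the wild type livers, with a member sum of 3515 against 3517, 3595 and 3714 in wild type replicates 1, 2 and 3. The sums were 3087 and 3290 in LKO replicates 2 and 3.

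**Figure D2:**
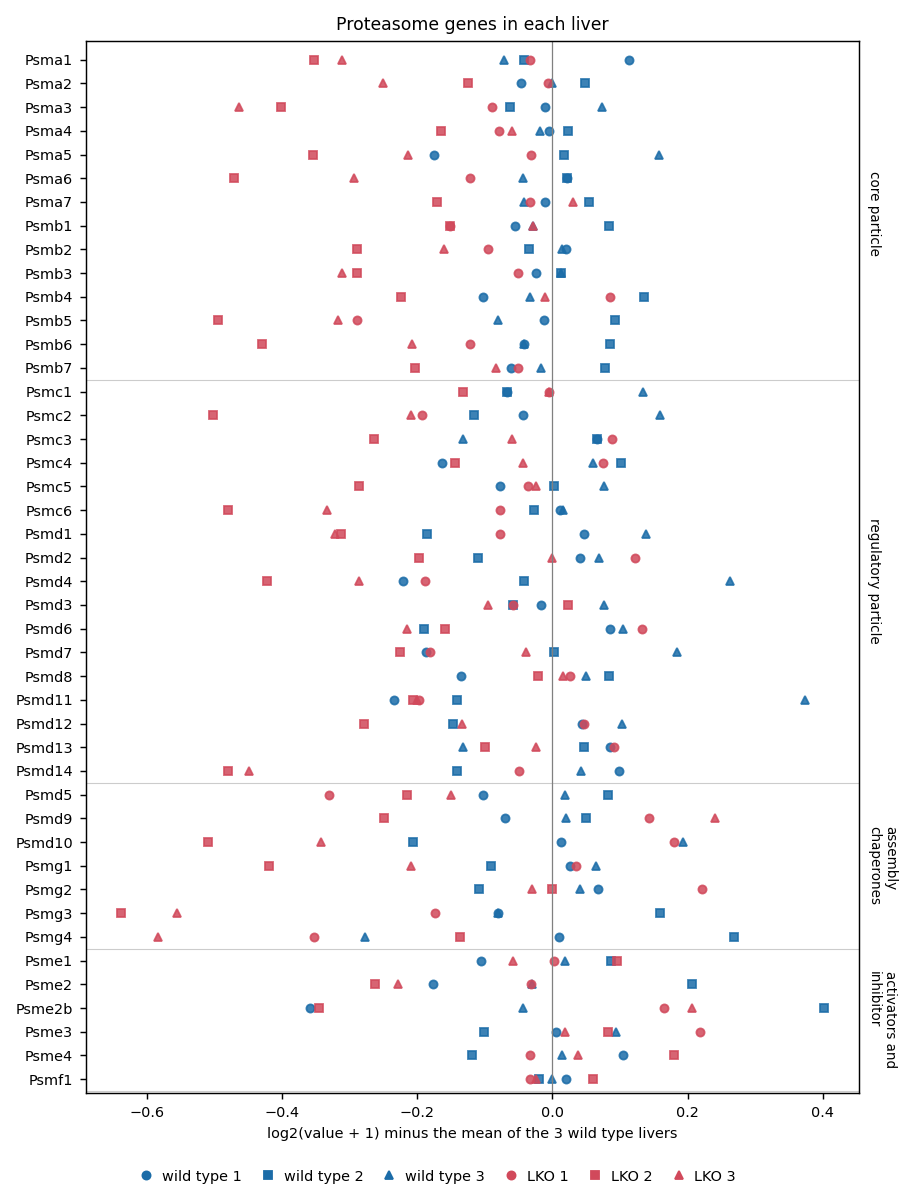
Each row is a proteasome gene and each point a liver. The horizontal axis gives log2(value + 1) minus the mean of the 3 wild type livers, with wild type in blue, LKO in red and the replicate shown by the symbol. The red squares of LKO replicate 2 are the leftmost point in 25 of 44 rows.

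All 14 core particle genes had a log2 fold change below 0, as had 16 of the 17 regulatory particle genes. Those of the 14 core genes ran from -0.37 to -0.05, with a median of -0.19. In 7 of them (50%) the groups did not overlap, against 11.9% of all tested genes, and 3 (21.4%) were lower with an unadjusted p under 0.05, against 8.86%. The mean log2 level over the 14 genes was 6.57, 6.63 and 6.59 in the wild type livers and 6.52, 6.30 and 6.40 in the LKO livers, so the groups did not overlap in this summary either. The median ran from -0.25 to -0.13 when any 1 library was left out, the latter without LKO replicate 2. In that fit 13 of the 14 core genes were below 0.

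Among the beta subunits, the 3 that carry the protease sites were examined first. Psmb5 (chromosome 14, 54614119 to 54618022, GRCm38) encodes the chymotrypsin-like subunit, the main target of proteasome inhibitor drugs. Its values were 106, 114 and 101 in wild type and 87.3, 75.6 and 85.6 in LKO. The groups were separate, and the log2 fold change of -0.37 (SE 0.11) was the one with the smallest p among the members. Its adjusted p in limma was 0.106. Over the fits with 1 library left out the log2 fold change ran from -0.41 to -0.30.

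Psmb6, which encodes the caspase-like subunit, had values of 129, 141 and 129 in wild type and 122, 98.4 and 115 in LKO. The groups were again separate, with LKO replicate 2 lowest and the other 2 LKO values close below the wild type range. The log2 fold change was -0.25 with SE 0.11 and, in limma, an adjusted p of 0.277. Psmb7, which encodes the trypsin-like subunit, had values of 127, 140 and 131 in wild type and 128, 115 and 125 in LKO. These groups overlapped, with a log2 fold change of -0.11 (95% interval -0.34 to 0.12, adjusted p in limma 0.608). Whether Psmb5 and Psmb7 differed in their response was not tested. The structural beta subunit genes Psmb2 and Psmb3 were lower without overlap, at -0.18 and -0.22, and Psmb1 and Psmb4 overlapped, at -0.11 and -0.05.

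Of the alpha ring genes, Psma3 and Psma6 had the smallest p. Psma3 values were 114, 110 and 121 in wild type and 108, 86.8 and 83.1 in LKO, with LKO replicate 1 just under the lowest wild type liver. Its log2 fold change was -0.32 with SE 0.12 and, in limma, an adjusted p of 0.196. Psma6 values were 102, 102 and 97.5 in wild type and 92.3, 72.2 and 81.8 in LKO, with no overlap. Its log2 fold change was -0.30 with SE 0.12 and, in limma, an adjusted p of 0.209. Psma4 was lower without overlap by a smaller amount, -0.10, and the other alpha genes, Psma1, Psma2, Psma5 and Psma7, overlapped at -0.23 to -0.06.

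The regulatory particle genes also had mostly lower means in LKO. Of its 17 genes 16 had a log2 fold change below 0 and the last, Psmd8, was at 0.00, with a median of -0.11 and a range from -0.33. In 2 genes (11.8%) the groups did not overlap, close to the 11.9% of all tested genes that were lower in that way. Lower values with an unadjusted p under 0.05 were found for 3 genes (17.6%), against 8.86% of all tested genes. Mean log2 levels were 6.54, 6.52 and 6.67 in wild type and 6.55, 6.33 and 6.43 in LKO, which overlapped, as LKO replicate 1 lay within the wild type range. Without LKO replicate 2 the median was -0.04 and 12 of 17 values were below 0.

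Psmc2 and Psmc6, both ATPases of the base, were the regulatory particle genes without overlap. Psmc2 values were 95.4, 90.7 and 110 in wild type and 85.9, 69.2 and 85 in LKO, or a log2 fold change of -0.30 with SE 0.13 and, in limma, an adjusted p of 0.24. Psmc6 values were 62.4, 60.7 and 62.6 in wild type and 58.6, 44.1 and 48.9 in LKO, or a log2 fold change of -0.30 with SE 0.12 and, in limma, an adjusted p of 0.241. The wild type livers were tightly grouped for Psmc6 and the LKO livers spread. The other ATPase genes, Psmc1, Psmc3, Psmc4 and Psmc5, lay between -0.11 and -0.04 with overlap.

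The lid gene Psmd14 encodes the metalloprotease that cuts ubiquitin chains off a substrate as it enters. Its values were 60.5, 51.1 and 58.2 in wild type and 54.5, 40.2 and 41.1 in LKO, where LKO replicate 1 lay inside the wild type range. The log2 fold change was -0.33 with SE 0.14 and, in limma, an adjusted p of 0.256. The ubiquitin receptor gene Psmd4 had values of 92.7, 105 and 130 in wild type and 94.8, 80.5 and 88.5 in LKO, for a log2 fold change of -0.30 (adjusted p in limma 0.288). The large scaffold genes of the base, Psmd1 and Psmd2, had -0.23 and -0.03. Psmd11 was led by 1 liver, with 79.7, 85.1 and 122 in wild type and 81.6 ± 0.289 (SD, n = 3) in LKO. Psmd8 had 109, 127 and 124 in wild type and 122, 118 and 121 in LKO, with the LKO livers inside the wild type range. The other lid genes, Psmd3, Psmd6, Psmd7, Psmd12 and Psmd13, overlapped at -0.15 to -0.01.

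The core particle was compared with the regulatory particle within each liver, a contrast in which the scaling of a library nearly cancels. The mean log2 level of the core genes minus that of the regulatory genes was 0.03, 0.11 and -0.08 in the wild type livers and -0.03 in each of the 3 LKO livers. The LKO values lay within the wild type range. The medians of the log2 fold changes differed by -0.08, core minus regulatory. Wild type replicate 2 was the highest library for 9 of 14 core genes, and wild type replicate 3 for 10 of 17 regulatory genes, so the wild type livers differed among themselves in this balance.

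**Figure D3:**
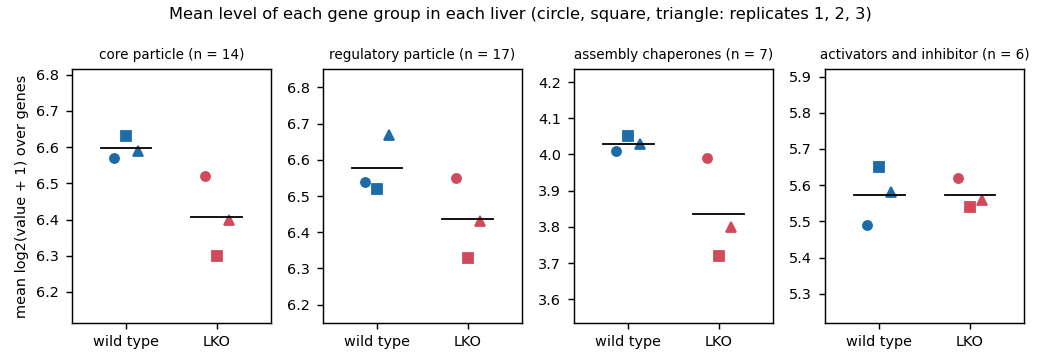
Mean log2(value + 1) over the genes of each of 4 groups, one point per liver and a line at the mean of 3 livers, on vertical axes of equal span that start at different levels. Core particle means are 6.57 to 6.63 in wild type and 6.30 to 6.52 in LKO, and the activators and inhibitor overlap.

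The activators and the inhibitor lay close to 0, and their difference from the core particle was not tested. These 6 genes had a median log2 fold change of 0.01, from -0.17 to 0.11, and 0 had an unadjusted p under 0.05. The nuclear activator gene Psme3 had 63.5, 58.9 and 67.6 in wild type and 73.7, 67.0 and 64.1 in LKO, for a log2 fold change of 0.11 (95% interval -0.14 to 0.35). Psme4, which encodes the large activator PA200, had 131, 112 and 123 in wild type and 119, 138 and 125 in LKO, for a log2 fold change of 0.07 (95% interval -0.18 to 0.31). For both genes the groups overlapped.

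Psme1 and Psme2 encode the interferon-inducible activator PA28. Psme1 had a log2 fold change of 0.01 and Psme2 one of -0.17, with values of 70.3, 92.0 and 77.9 in wild type and 77.8, 66.2 and 67.8 in LKO. Psme2b, at 4.75 ± 1.54 in wild type and 4.73 ± 1.14 in LKO (SD, n = 3), is a close copy of Psme2, so the split of reads between the pair is uncertain. Psmf1, the inhibitor known as PI31, was at 34.7 ± 0.484 in wild type and 34.7 ± 1.26 in LKO (SD, n = 3), a log2 fold change of 0.00 (95% interval -0.24 to 0.24). With libraries scaled by their size, 5 of these 6 genes were below 0 rather than 1, with a median of -0.05, and Psme1, Psme2b and Psmf1 were at -0.05, -0.04 and -0.07. That scaling moved the median of all tested genes to -0.06.

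The mean log2 level over the 7 assembly chaperone genes was 4.01, 4.05 and 4.03 in the wild type livers and 3.99, 3.72 and 3.80 in the LKO livers, with LKO replicate 1 just below the wild type range. Psmg1 to Psmg4 help to build the alpha ring, and Psmd5, Psmd9 and Psmd10 help to build the ATPase ring. Of these 7 genes 5 had a log2 fold change below 0, with a median of -0.22, or -0.09 without LKO replicate 2. Psmg3 had 13.4, 16.0 and 13.4 in wild type and 12.5, 8.78 and 9.36 in LKO, with no overlap and the lowest log2 fold change of all members, -0.45 (SE 0.17, adjusted p in limma 0.193). Psmg4, whose product pairs with that of Psmg3, had 5.21, 6.43 and 4.09 in wild type and 3.83, 4.61 and 3.12 in LKO, for a log2 fold change of -0.36 (95% interval -0.84 to 0.13). The groups overlapped for Psmg4, and its low level makes it the less certain of the pair.

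Psmg2 was at 9.25, 8.07 and 9.06 in wild type and 10.4, 8.78 and 8.58 in LKO, for a log2 fold change of 0.06 (95% interval -0.29 to 0.42). Psmd5 had 29.7, 33.9 and 32.4 in wild type and 25.2, 27.4 and 28.7 in LKO, with no overlap and a log2 fold change of -0.23 (adjusted p in limma 0.338). Here LKO replicate 1, not 2, was the lowest. Psmd9 had 52, 56.6 and 55.4 in wild type and 60.4, 45.8 and 64.7 in LKO, with the LKO livers on both sides of the wild type range. Its log2 fold change was 0.05, and -0.02 when libraries were scaled by their size. Psmd10 was at -0.22 and Psmg1 at -0.20, both with overlap.

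Levels were compared between subunits per kilobase of the principal annotated transcript in GENCODE M21, as a description. In the wild type livers the 3 catalytic genes had the highest means of the core genes, with Psmb6 at 167, Psmb5 at 119 and Psmb7 at 114 value units per kilobase. Psmb4 and Psmb3 were close behind at 111 and 110, within the spread between livers (SD 5.43 for Psmb7 and 9.58 for Psmb4). Psma2 was lowest at 26.9, a 6.19-fold range, among subunits that the complex holds in equal number. Psma2 and Psma3, the lowest pair, have the longest principal transcripts of the core genes, at 2911 and 2846 bases, and which forms the liver uses was not tested. The order of the 14 core genes in LKO resembled that in wild type, with a Spearman rho of 0.96 across genes that share the same libraries. Psmb5 was behind Psmb6 alone in wild type, and behind Psmb6, Psmb4, Psmb7 and Psmb3 in LKO. The LKO means of Psmb5 and Psmb3 were close, at 92.1 and 94.9.

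Regulatory particle genes were more even per kilobase than core genes, with a median of 52.8 in wild type and 47.5 in LKO, from Psmc6 at 27.7 to Psmc3 at 76.4 in wild type. The core median was 93.0 in wild type and 81.5 in LKO. The chaperone genes all lay below the lowest gene of either particle, for example Psmd10 at 6.25 and Psmg1 at 17.1. The activators were split, as Psme1 and Psme2 reached 81.3 and 83.2 and Psme4 18.7 per kilobase.

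Genes that work with the proteasome, and other complexes set beside it, gave no calls either. Over these 7 lists, 76 tested genes held 0 calls in limma and 0 with limma-voom, where 3.51% and 3.04% of all tested genes were called. Of 19 tested subunits and partners outside the name rule, 13 had a log2 fold change below 0, with a median of -0.11. Of all tested genes, 50.2% were below 0. At an unadjusted p under 0.05, 3 were lower and 0 higher, against 8.86% and 9.58% of all tested genes. Without overlap, 3 were lower and 2 higher, against 11.9% and 12.2%. The lower ones were Uchl5, Usp14 and Ubqln2, and the higher ones Ube3c at 0.23 and Ublcp1 at 0.13. The most abundant of the 19 were Ddi2, which encodes the protease that activates NRF1, at 0.06, and the shuttle factor gene Rad23b, at -0.19. Of 11 ubiquitin and p97 genes, 5 were below 0, with a median of 0.01. Without overlap, 2 of the 11 were lower and 2 higher. Among the lower was the polyubiquitin gene Ubb, at -0.27 (adjusted p in limma 0.302), and among the higher Nploc4, at 0.39 (adjusted p in limma 0.086).

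Among 13 regulators of transcription, 7 were below 0, 3 had an unadjusted p under 0.05 on the lower side and 2 on the higher side, where 8.86% and 9.58% of all tested genes did. Nfe2l1, whose product drives proteasome genes, had values of 155, 160 and 161 in wild type and 112, 105 and 130 in LKO. The groups were well apart, and the log2 fold change was -0.46 with SE 0.11 and, in limma, an adjusted p of 0.0584. It remained between -0.55 and -0.39 when each library was left out in turn, with an adjusted p of 0.0705 or more. Stat3, which encodes a cytokine-activated factor, had 87.8, 88.3 and 98.1 in wild type and 111, 164 and 137 in LKO, or a log2 fold change of 0.56 with SE 0.14 and, in limma, an adjusted p of 0.0699. It was called only without LKO replicate 1, with an adjusted p of 0.0173. The 5 raised Kupffer cell and macrophage markers moved in the same livers, and their part was not tested.

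The 3 inducible catalytic subunits, which replace their constitutive counterparts in immune cells and under interferon, did not pass the test. Psmb8, the counterpart of Psmb5, had 32.7, 30.8 and 27.4 in wild type and 36.0, 33.8 and 42.1 in LKO, higher without overlap, for a log2 fold change of 0.29 with SE 0.13 and, in limma, an adjusted p of 0.274. Psmb10 was at 0.16 and Psmb9 at -0.31, both with overlap. Macrophages express these genes, and the summed Kupffer cell and macrophage markers were 194 to 278 in the same LKO livers against 126 to 144 in wild type, a part that was not tested.

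**Figure D4:**
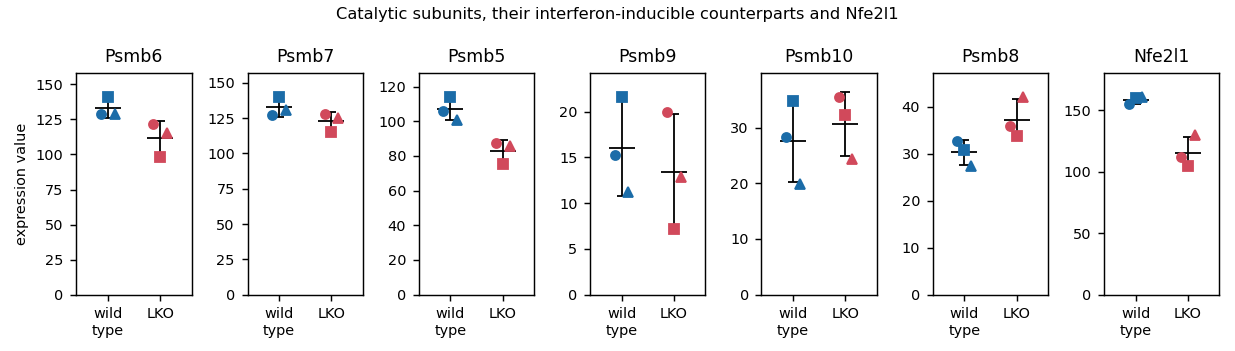
Expression values per liver of the catalytic subunit genes Psmb6, Psmb7 and Psmb5, of the inducible counterparts Psmb9, Psmb10 and Psmb8 in the same order, and of Nfe2l1. Points are livers (circle, square and triangle for replicates 1, 2 and 3), and the bars give the mean and SD of 3, with every vertical axis starting at 0. Psmb5, Psmb6 and Nfe2l1 are lower in all 3 LKO livers and Psmb8 is higher, while the groups overlap for Psmb7, Psmb9 and Psmb10.

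Other large complexes of the cytosol were set beside the proteasome as a description. The COP9 signalosome and the initiation factor eIF3 are built on the same fold as the proteasome lid. The 9 COP9 signalosome genes had a median log2 fold change of -0.10, with 7 below 0, and the 13 eIF3 genes one of -0.02, with 7 below 0. The 8 genes of the CCT chaperonin, which folds actin and tubulin, had -0.07, with 6 below 0. The most abundant genes were Cops6 and Gps1 at -0.16 and -0.07, Eif3a and Eif3c at 0.19 and 0.05, and Cct5 and Tcp1 at -0.15 and -0.06. The groups overlapped in all genes of these 3 complexes, and 0 had an unadjusted p under 0.05. Of all tested genes, 11.9% were lower and 12.2% higher without overlap, 18.4% had such a p, and 50.2% were below 0. The summed value of the COP9 signalosome genes did not overlap between the groups, at 407, 416 and 405 in wild type and 393, 364 and 369 in LKO. The sums overlapped for eIF3 and for CCT. The difference between the proteasome and these complexes was not tested.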

How the data were processed

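The authors deposited 1 table per mouse with a name, an identifier and an expression signal per gene. The file headers give no unit. From the values, the signal is an estimated read count with 2 decimals times 1 factor per library. Of the positive values, 82.0% to 83.1% were whole reads to a tolerance of 0.005. The values were fitted as signal, with limma-voom on the estimated counts as an alternative. Per the submitters' processing notes, the tools included Trimmomatic 0.36, STAR 2.5.1 and RSEM 1.2.22, with build mm10. For the annotation and the strand setting, nothing is given in the sources used here. A signal of 3 reads was 0.331 to 0.447 units. Depth limits cover counting error only.

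The 11168 genes whose mean reached 1 entered a single fit of log2(value + 1) in limma 3.58.1 (R 4.3.3, trend option), followed by Benjamini-Hochberg adjustment. A gene is called at an adjusted p under 0.05. Each log2 fold change is the LKO mean minus the wild type mean of log2(value + 1), a scale that shrinks differences between low values. Tests were two-sided, without a block. p-values measure the spread between these samples, since the labels do not state their relation. The members, lists and tests were chosen with earlier results of these data known. Values per liver are given for the 2 members of smallest p in each direction and role and for the catalytic subunits, and for a few others chosen after their values were seen. In the other lists the most abundant genes are named, unless said otherwise. Some items are not reported here. Gene places, transcript lengths and 3′ untranslated regions are from GENCODE M21 (GRCm38, the assembly of mm10), in which 13977 of 14002 identifiers were found. Scripts were tested on simulated data.

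The alternatives were median-of-ratios (RLE) and library-size scaling, no filter, a mean of at least 5, a pseudocount of 0.1, limma-voom on the estimated counts, a replicate block and each library left out.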

Additional observations from a re-analysis of the deposited data

How the results depend on the processing

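Over 13 alternatives, 0 members were called in any, and the smallest adjusted p of a member in limma was 0.0712, for Psma3 without LKO replicate 1. Between 33 and 42 members were below 0, and 1 to 12 had an unadjusted p under 0.05 on the lower side, with 0 on the higher side in all fits. In the main fit, 50.2% of all tested genes were below 0, and 8.86% and 9.58% were lower and higher at that p. These shares were not taken in the alternatives. Over the fits that left out a library, the median was -0.25 to -0.13 for the core particle, -0.16 to -0.04 for the regulatory particle, -0.01 to 0.03 for the activators and inhibitor and -0.31 to -0.09 for the assembly chaperones. With library size as the scaling these medians were -0.26, -0.18, -0.05 and -0.28. That scaling also moved the median of all tested genes, from -0.002 to -0.06. Counts over all genes were 76 to 277 raised and 79 to 263 lowered in the fits that left out a library, against 203 and 189. Genes called in the 7 other lists were 0 or 1, the 1 being Stat3. Of 570 refitted member values 22 turned sign, in 10 members, not counting changes from or to a value that rounds to 0.00. With library size as the scaling, where 42 members were below 0, Psmd9 was -0.02, Psme1 -0.05 and Psme2b -0.04, and Psmd8 and Psmf1 went from 0.00 to -0.06 and -0.07. Over the fits that left out a library, Psmb4 ran from -0.12 to 0.04, Psmc1 from -0.08 to 0.02, Psmc3 from -0.16 to 0.02, Psmc4 from -0.12 to 0.02, Psmd2 from -0.10 to 0.06, Psmd13 from -0.08 to 0.03, Psmd9 from -0.05 to 0.19, Psmg2 from -0.01 to 0.11, Psme1 from -0.04 to 0.06 and Psme2b from -0.17 to 0.21. The cause was not tested. Same-numbered livers of the 2 groups had deviations from their group means that correlated at 0.046, 0.032 and 0.054. Differently numbered livers correlated at -0.056 to 0.002, so each library correlated best with its own number. Correlations this small, from 3 livers per group, cannot settle whether the numbers pair the livers. With the replicate block 0 members were called, the smallest adjusted p was 0.153 (Psmb5), and 217 and 199 of all genes were raised and lowered. The alternative without Psmc3ip was not run, as that gene is not among the listed rows used here. Depth limits Psme2b most.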

Other observations

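The deubiquitinases that sit on the regulatory particle were looked at together after their values were seen. Besides Psmd14, these are Usp14 and Uchl5, which trim ubiquitin chains before a substrate is committed. Usp14 had values of 43.2, 34.3 and 34.7 in wild type and 31.8, 24.7 and 24.8 in LKO. Its log2 fold change was -0.45 with SE 0.15 and, in limma, an adjusted p of 0.136. Uchl5 had 18.2, 15.0 and 17.0 in wild type and 11.9, 13 and 12.5 in LKO, or a log2 fold change of -0.40 with SE 0.14 and, in limma, an adjusted p of 0.159. For both genes the groups were separate, and neither passed the test. The shuttle factor gene Ubqln2 had 15.6, 18.7 and 20.1 in wild type and 12.5, 12.1 and 12.8 in LKO, or a log2 fold change of -0.50 with SE 0.14 and, in limma, an adjusted p of 0.0947.

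The ratio of each inducible catalytic subunit to its constitutive counterpart was taken within each liver, where the factor of the library cancels. Psmb8 over Psmb5 was 0.307, 0.27 and 0.272 in wild type and 0.413, 0.447 and 0.492 in LKO. Psmb8 was higher and Psmb5 lower without overlap, so the separation of this ratio follows from those values. Psmb9 over Psmb6 was 0.119, 0.153 and 0.087 in wild type and 0.164, 0.0726 and 0.112 in LKO. Psmb10 over Psmb7 was 0.223, 0.248 and 0.152 in wild type and 0.278, 0.28 and 0.194 in LKO. The groups overlapped for both of these pairs. The summed Kupffer cell and macrophage markers were 194 to 278 in LKO and 126 to 144 in wild type, and their part in these ratios was not tested.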
